A study of Saccharomyces cerevisiae with 7 samples.

Results

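The genes described here encode the transcription activator Gcn4 and enzymes of amino acid biosynthesis that Gcn4 is known to activate in the yeast Saccharomyces cerevisiae. They were listed by name as GCN4 and 42 enzyme genes for histidine, arginine, isoleucine, valine, leucine, lysine, the aromatic amino acids, the aspartate family, serine and asparagine. Each name was matched to probe sets that the array annotation assigns to a single gene, and the probe set with the highest mean log2 intensity stood for a gene with several. All 43 genes were matched, out of 5656 genes with such a probe set. All 43 passed the filter on low intensity, which left 5220 genes for testing.

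Amino acid shortage in yeast activates the general amino acid control. Uncharged tRNA activates the kinase Gcn2, which phosphorylates the initiation factor eIF2, and ribosomes then pass short upstream reading frames in the GCN4 mRNA and translate the Gcn4 protein. Gcn4 binds the promoters of biosynthetic genes in many pathways at once, so those genes are known to move together during starvation. Because this control acts mainly on translation, mRNA levels of GCN4 do not measure how much Gcn4 protein the cells held, and protein was not measured here.

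The study asked how galacturonic acid, the acid sugar that makes up the backbone of pectin, affects yeast that cannot use it as a carbon source. RNA was hybridised to 7 one-colour Affymetrix yeast arrays. All cultures were of the prototrophic laboratory strain CEN.PK113-7D, grown with air in chemostats fed 7.5 g/l glucose as the limiting nutrient, at pH 3.5, 30 °C and a dilution rate of 0.1 per hour, so that the feed set the growth rate. One group had 10 g/l galacturonic acid added (2 arrays), another had 0.23 g/l galactose added (2 arrays), and the control had glucose without either addition (3 arrays). The titles and treatment labels of the galactose arrays name galactose, whereas 1 label field of the same arrays gives the abbreviation used for galacturonic acid at the dose of 0.23 g/l. The array titles carry different codes, which start with EH for all control and galacturonic acid arrays and with MA for both galactose arrays. What the codes stand for is not stated. Any difference that goes with the MA codes cannot be told apart from the added galactose. No label says how the cultures were started, so p-values measure the spread between these arrays. The small number of arrays limits the precision of every value.

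The galactose arrays stood apart in RNA quality. The ratio of the 3′ to the 5′ probe set of the actin gene ACT1 was 306 on the second galactose array and 19.8 on the first, where galacturonic acid and control arrays gave 1.07 to 1.34. For SPT15, which encodes the TATA-binding protein, the second galactose array gave 124 and the first 2.76, where the remaining arrays gave 1.66 to 2.75. The 5′ signals of both genes on galactose array 2 lay below 12, the intensity used as the floor. The trimmed mean intensity was 150.1 on every array. Markers of the MATa mating type, which this strain has, were present, with a summed intensity of 6312 to 7877 with galacturonic acid, 3938 to 4426 with galactose and 1522 to 2200 in controls. Of 6 MATa markers, 4 passed as higher with galacturonic acid and 2 with galactose. The 4 MATalpha markers summed to 975 to 1020 with galacturonic acid, 90.1 to 237.5 with galactose and 75.3 to 113 in controls. The sums with galacturonic acid rested mainly on MF(ALPHA)1, a pheromone gene and 1 of the 3 testable MATalpha markers, which passed as higher, while MF(ALPHA)2 was below the floor on all 7 arrays. The part of RNA quality or of these mating genes in the results on amino acid biosynthesis was not tested.

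With galacturonic acid, no amino acid biosynthesis gene passed the test. By limma with Benjamini-Hochberg adjustment over all 5220 genes, 0 of 43 had an adjusted p under 0.05, while 2.32% of all genes did (121 genes, with 46 or 0.881% higher and 75 or 1.44% lower). At an unadjusted p under 0.05, 2 of the 43 passed (4.65%), TRP4 and ARG4, both lower, against 12.5% of all genes. The median log2 difference from the control was 0.02 over the 43 genes and -0.01 over all genes, with 24 of the 43 above 0 and 19 below. Differences ran from -1.04 for TRP4 to 0.90 for LYS4. A difference of at least 2-fold was seen in 1 of the 43 (2.33%), against 9.16% of all genes. The galacturonic acid arrays lay apart from all control arrays in 14 of the 43 genes, 7 higher and 7 lower, and in 41.1% of all genes, 20% higher and 21.1% lower.

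A missed threshold does not show that these genes were equal in both groups. The 95% interval of the difference lay within 2-fold in both directions for 11 of the 43 genes and within 4-fold for 41. For the remaining genes the interval reached past 2-fold in at least 1 direction, so changes of that size could go undetected. The fit held 1 spread per gene for all groups, so the spread of the galactose pair entered these intervals and p-values. In a fit to only the galacturonic acid and control arrays, 0 of the 43 and 4.9% of all genes passed. The smallest limma adjusted p of the aromatic genes was 0.060 there, against 0.202 in the main fit.

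**Figure D1:**
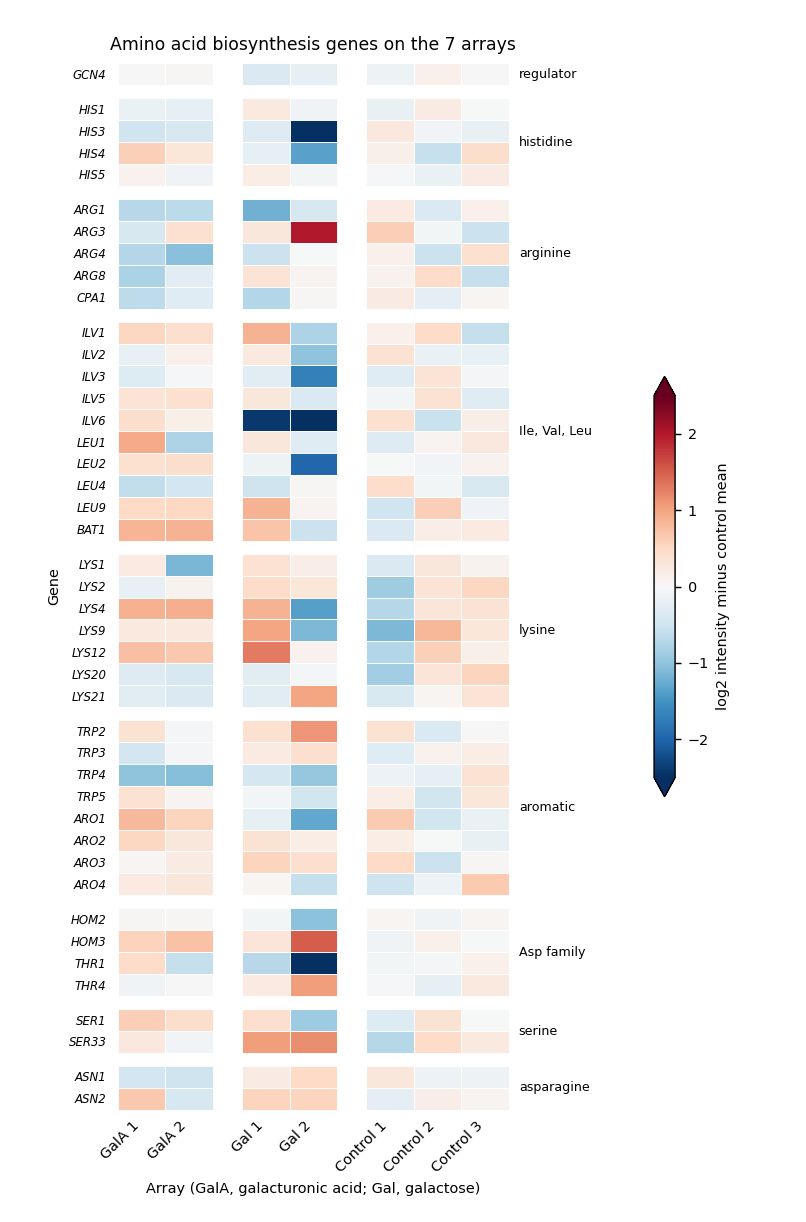
Intensity of each of the 43 genes on each of the 7 arrays, as log2 intensity minus the mean of the 3 controls (colour, red higher and blue lower), with rows grouped by pathway and columns by group. The galacturonic acid columns are mostly pale (differences from -1.04 to 0.90 after averaging), the strongest colours are on galactose array 2, and ILV6 is dark blue on both galactose arrays.

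GCN4 (YEL009C), the activator itself, had intensities of 3333 and 3350 with galacturonic acid, 2544 and 2834 with galactose, and 3007, 3599 and 3294 in controls. The galacturonic acid arrays lay inside the control range and the galactose arrays below it. The log2 difference was 0.02 ± 0.26 (SE) with galacturonic acid, with a 95% interval of -0.58 to 0.62, and -0.29 ± 0.26 with galactose. Neither passed the test, with limma adjusted p of 0.99 and 0.456.

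None of the 5 arginine genes passed with galacturonic acid. All 5 differences were below 0, with a median log2 difference of -0.54, which was -0.30 without galacturonic acid array 1. The galacturonic acid arrays lay below every control for 3 of the 5, against 21.1% of all genes. ARG4 (YHR018C), argininosuccinate lyase, catalyses the last step and differed most. Its intensity was 811 and 654 with galacturonic acid, 927 and 1336 with galactose, and 1467, 937 and 1795 in controls. Both galacturonic acid arrays were below all controls, and 1 galactose array was inside the control range and the other just below it. The log2 difference with galacturonic acid was -0.89 ± 0.36, with a limma adjusted p of 0.346. ARG1, argininosuccinate synthetase, differed by -0.68 and CPA1, the small subunit of the carbamoyl phosphate synthetase for arginine, by -0.48, both with arrays apart from the controls. ARG8, the acetylornithine aminotransferase, differed by -0.54 with overlapping arrays. ARG3, ornithine carbamoyltransferase, had a difference of 0.00 to 2 decimals, and under 4 of the alternative settings only 4 of the 5 genes lay below 0. With galactose the arginine median was -0.28, and ARG3 had 414 and 1359, against 517, 325 and 233 in controls, a wide spread within the galactose pair.

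The genes of isoleucine, valine and leucine synthesis had a median log2 difference of 0.33 with galacturonic acid, and none of the 10 passed. BAT1 (YHR208W), the mitochondrial branched-chain transaminase, had the largest. It gave 784 and 797 with galacturonic acid, 717 and 302 with galactose, and 333, 490.1 and 508 in controls. The galacturonic acid arrays were close to each other and above all controls, while the galactose arrays fell on either side of the control range. The log2 difference with galacturonic acid was 0.86 ± 0.41 (limma adjusted p = 0.457). LEU2, isopropylmalate dehydrogenase, was also above all controls with galacturonic acid, with a difference of 0.41. ILV5, the reductoisomerase, differed by 0.37, ILV1, threonine deaminase, by 0.47, LEU1, isopropylmalate isomerase, by 0.09, and ILV3, the dihydroxyacid dehydratase, by -0.19, all with overlapping arrays. The isopropylmalate synthases LEU4 and LEU9 differed by -0.53 and 0.51, and only LEU4 had arrays apart from the controls. LEU4 had 1791 and 1983 with galacturonic acid, 1893 and 2794 with galactose, and 3758, 2608 and 2067 in controls. LEU9 had 86.8 and 89.1 with galacturonic acid, 113 and 64.9 with galactose, and 43.7, 94.2 and 57.5 in controls. The LEU9 galacturonic acid arrays lay inside the control range, and the galactose arrays lay above and inside it.

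ILV6 (YCL009C), the regulatory subunit of acetolactate synthase, was the one gene of the 43 that passed in a comparison. Its intensity was 1686 and 1382 with galacturonic acid, 234.5 and 69.9 with galactose, and 1643, 848 and 1404 in controls. Both galactose arrays were far below every other array, and the galacturonic acid arrays lay just above and inside the control range. Mean intensity was 1534 ± 215 with galacturonic acid (SD, n = 2), 152 ± 116 with galactose (SD, n = 2) and 1298 ± 408 in controls (SD, n = 3). ILV6 fell by 3.29 ± 0.52 on the log2 scale with galactose, a 9.77-fold difference (limma adjusted p = 0.0161). With galacturonic acid it was 3.58 ± 0.57 higher than with galactose, 11.9-fold (limma adjusted p = 0.0142). The comparison of galacturonic acid with the control gave 0.29 ± 0.52 (limma adjusted p = 0.908). ILV2, the catalytic subunit of the same enzyme, had 678 and 853 with galacturonic acid, 920.3 and 388 with galactose, and 1008, 690.1 and 671 in controls. Its log2 difference was -0.03 with galacturonic acid and -0.38 with galactose, and neither passed.

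The fall of ILV6 with galactose was seen on arrays of uneven RNA quality, and the part of that quality in it was not tested. Without galactose array 2, the poorer of the pair by the 3′ to 5′ ratios, the log2 difference was -2.41 (limma adjusted p = 0.0388), and without galactose array 1 it was -4.16 (0.00144). Each of these fits has a single galactose array, which is assumed to vary like the arrays of the other groups, so neither p shows the spread between galactose cultures. The call was lost without control array 1, 2 or 3 (adjusted p of 0.0785, 0.0582 and 0.0821) and without galacturonic acid array 1 or 2 (0.0714 and 0.0708), with log2 differences of -3.09 to -3.57. The difference between galacturonic acid and galactose lost its call without galacturonic acid array 1 or 2 (adjusted p of 0.186 and 0.112).

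**Figure D2:**
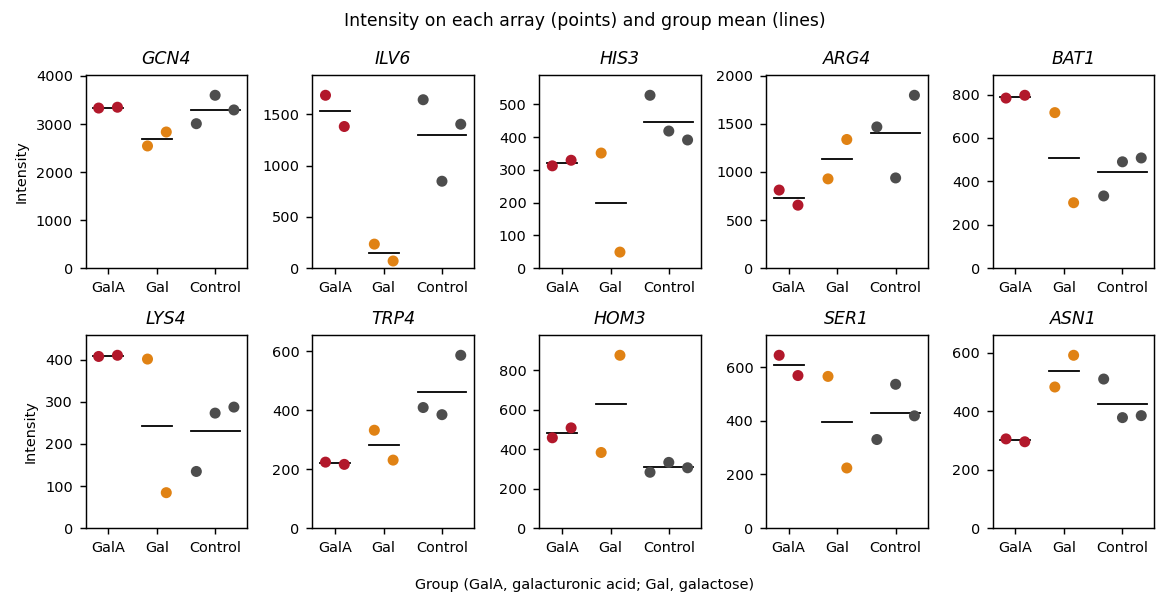
Intensity (linear axis from 0) of 10 genes on each array, with points for arrays and lines for group means, galacturonic acid left, galactose in the middle and control right. ILV6 lies at 234.5 and 69.9 on the galactose arrays, far under the others. The galacturonic acid points of TRP4, ARG4, ASN1 and HIS3 lie below every control point.

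The aromatic gene TRP4 had the largest difference of the 43 with galacturonic acid. TRP4 (YDR354W) encodes anthranilate phosphoribosyltransferase of the tryptophan branch. It had 224 and 216 with galacturonic acid, 332 and 231 with galactose, and 409, 385 and 586 in controls. All 4 arrays with an added sugar were below all 3 controls, which both comparisons share. The log2 difference was -1.04 ± 0.33 with galacturonic acid (2.05-fold lower, limma unadjusted p = 0.0121, adjusted p = 0.202) and -0.71 ± 0.33 with galactose (adjusted p = 0.159). The other aromatic differences with galacturonic acid ran from -0.26 for TRP3, which carries out the indole-glycerol phosphate synthase step, to 0.68 for ARO1, the multifunctional enzyme of the shikimate steps. ARO2, chorismate synthase, was above all controls with galacturonic acid, at 0.41. TRP2, anthranilate synthase, differed by 0.16 and TRP5, tryptophan synthase, by 0.22. ARO3 and ARO4, the DAHP synthases that open the pathway and are inhibited by phenylalanine and by tyrosine, differed by 0.12 and 0.26 with galacturonic acid and by 0.50 and -0.28 with galactose. ARO3 had 112 and 124 with galacturonic acid, 160.1 and 145 with galactose, and 152, 74.9 and 111 in controls. ARO4 had 766 and 800.4 with galacturonic acid, 676 and 430.1 with galactose, and 455, 592 and 1035 in controls. Both ARO genes had overlapping arrays in both comparisons with the control. None of the 8 aromatic genes passed in any comparison, and the aromatic median was 0.19 with galacturonic acid and 0.00 with galactose. With galacturonic acid 2 of the 8 lay below 0, but without control array 2 the median was -0.03 and 5 of the 8 lay below 0.

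**Figure D3:**
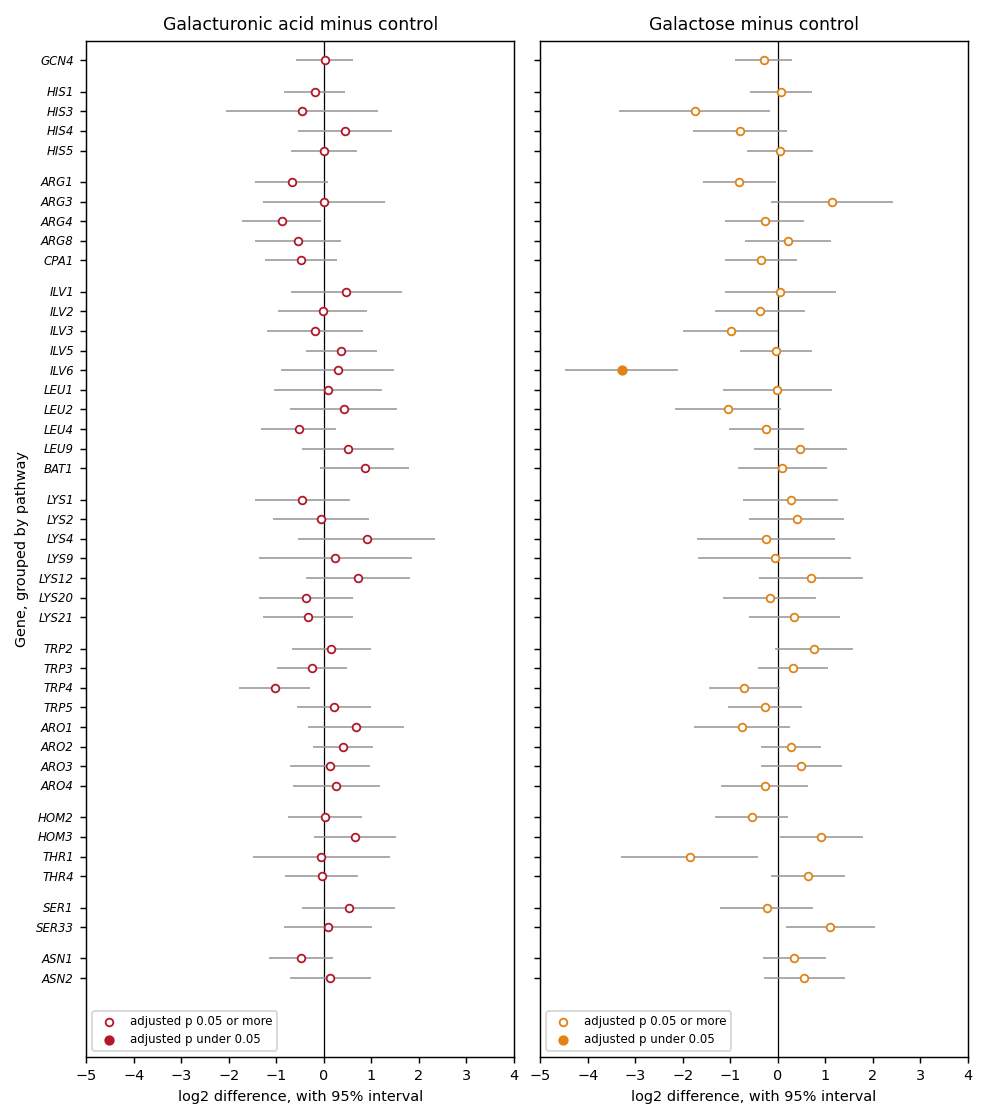
Log2 difference from control with its 95% interval (limma) for each of the 43 genes, with galacturonic acid on the left and galactose on the right; filled points had an adjusted p under 0.05. The single filled point is ILV6 with galactose at -3.29, and no point is filled for galacturonic acid.

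Among the 4 histidine genes the median log2 difference with galacturonic acid was -0.10. HIS3 (YOR202W), imidazoleglycerol-phosphate dehydratase, was the one with the largest absolute value. Its intensity was 312 and 329 with galacturonic acid, 351 and 49.0 with galactose, and 527, 418 and 391 in controls. On this main probe set all 4 arrays with an added sugar were below the controls, but only galactose array 2 by a wide margin. The log2 differences were -0.46 ± 0.70 with galacturonic acid and -1.75 ± 0.70 with galactose (limma adjusted p of 0.872 and 0.118). A second HIS3 probe set, given further below, had both galactose arrays above all controls, with a log2 difference of 1.24. HIS4, which carries out several steps of the pathway, differed by 0.45 with galacturonic acid and -0.80 with galactose. HIS1, which catalyses the first step, differed by -0.20 and 0.07, and HIS5, histidinol-phosphate aminotransferase, by 0.00 and 0.05.

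In the aspartate family, HOM3 (YER052C), aspartate kinase, which catalyses the first step towards threonine and methionine, had 458 and 508 with galacturonic acid, 383 and 876 with galactose, and 283, 333 and 306 in controls. All 4 arrays with an added sugar were above the controls. The log2 difference was 0.65 ± 0.38 with galacturonic acid and 0.92 ± 0.38 with galactose, with limma adjusted p of 0.551 and 0.128. THR1, homoserine kinase, had 1047 and 501 with galacturonic acid, 466 and 92.5 with galactose, and 715, 723 and 823 in controls. Both galactose arrays were below all controls, by -1.86 ± 0.63 (adjusted p = 0.0886), whereas the galacturonic acid arrays lay on both sides of them. HOM2, aspartate semialdehyde dehydrogenase, and THR4, threonine synthase, differed by 0.02 and -0.05 with galacturonic acid.

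SER1 (YOR184W), phosphoserine aminotransferase, had 644 and 569 with galacturonic acid, 565 and 224 with galactose, and 330.2, 536 and 418 in controls. The galacturonic acid arrays were above the controls by 0.53 ± 0.43 (limma adjusted p = 0.697). SER33 and SER3 encode isozymes of phosphoglycerate dehydrogenase, and SER3 was not among the 43 genes. SER33 had 160.4 and 125 with galacturonic acid, 275 and 299 with galactose, and 81.0, 186 and 157 in controls, so that only the galactose arrays were apart, by 1.11 ± 0.41 (adjusted p = 0.101). SER3 had 177 and 210.4 with galacturonic acid, 159 and 116 with galactose, and 53.3, 149 and 66.3 in controls, so that only the galacturonic acid arrays were apart, by 1.25 ± 0.47 (adjusted p = 0.306). The 2 isozyme genes thus showed different patterns over the groups, none of which passed. ASN1 (YPR145W), an asparagine synthetase, had 305 and 296 with galacturonic acid, 483 and 591 with galactose, and 510.0, 378 and 385 in controls. Both galacturonic acid arrays lay under all controls, by -0.48 ± 0.29 (adjusted p = 0.568). Its isozyme gene ASN2 had 599.5 and 281 with galacturonic acid, 547 and 552 with galactose, and 317, 421 and 391 in controls. Its galactose arrays were above all controls, by 0.56, while the galacturonic acid arrays lay on both sides of them, with a difference of 0.13.

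Among the 7 lysine genes none passed, and 2 had galacturonic acid arrays apart from all controls, both higher, against 20% of all genes. LYS4 (YDR234W), homoaconitase, had 408 and 411 with galacturonic acid, 402 and 84.3 with galactose, and 135, 273 and 288 in controls. Both galacturonic acid arrays exceeded all controls, by 0.90 ± 0.63 (limma adjusted p = 0.632), and the galactose arrays were above and below them. LYS12, homoisocitrate dehydrogenase, was also above all controls with galacturonic acid, by 0.72. LYS1, saccharopine dehydrogenase, differed by -0.45, LYS2, aminoadipate reductase, by -0.06, and LYS9, saccharopine reductase, by 0.24, with overlapping arrays. LYS20 and LYS21, the homocitrate synthases that open the pathway, differed by -0.38 and -0.33 with galacturonic acid and by -0.17 and 0.35 with galactose. LYS20 had 1574 and 1475 with galacturonic acid, 1619 and 1903 with galactose, and 1081, 2464 and 2904 in controls. LYS21 had 1205 and 1119 with galacturonic acid, 1204 and 2880 with galactose, and 1107, 1522 and 1854 in controls. All of these lay inside the control range except LYS21 on galactose array 2, which lay above it.

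All 7 lysine genes had their lowest control value on control array 1. Among the controls, 49.6% of all genes and 13 of the other 36 amino acid biosynthesis genes were lowest on that array. The mean of control arrays 2 and 3 was 1.48 times (LYS1) to 3.30 times (LYS9) the value on control array 1 across the lysine genes, with a median of 2.19, against a median of 1.10 over all genes. This pattern was chosen after its values were seen and is a description without a test. LYS14, the activator of the lysine genes, had 19.3, 23.9 and 22 on the 3 controls, and LYS5, which activates the Lys2 enzyme, had 224, 190.0 and 224, so that LYS5 was not lowest on control array 1. The direction of the lysine median with galacturonic acid depended on which array was left out. That median was -0.06 with all arrays, -0.50 without control array 1, 0.11 without control array 2 and 0.21 without control array 3. It was 0.09 without galacturonic acid array 1 and 0.23 without galacturonic acid array 2, and no lysine gene passed in any of these.

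**Figure D4:**
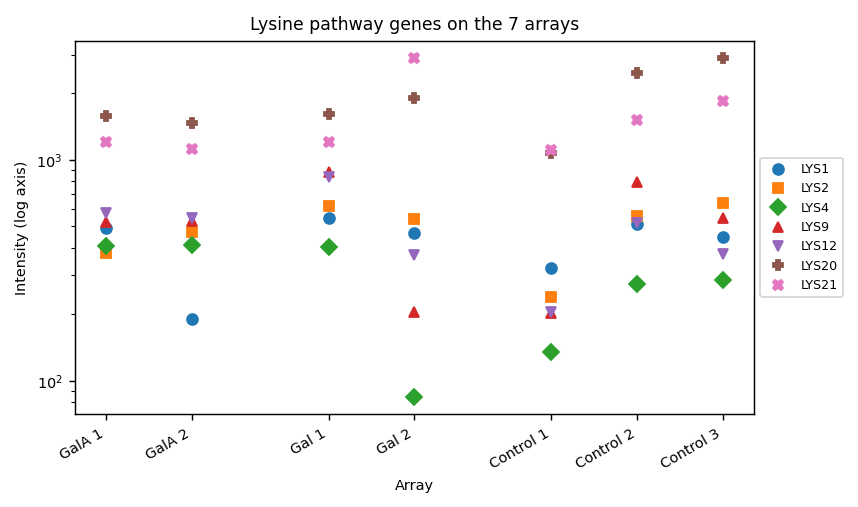
Intensity (log axis) of the 7 lysine genes on each array, with the galacturonic acid arrays left, galactose in the middle and controls right. On control array 1 every one of the 7 genes lies below its values on control arrays 2 and 3.

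With galactose, ILV6 was the one gene of the 43 that passed, against 9.06% of all genes (473 of 5220, with 4.75% higher and 4.31% lower). The median log2 difference was -0.04 over the 43 genes and 0.22 over all genes. A difference of at least 2-fold was seen in 6 of the 43 (14.0%) and in 27.7% of all genes. The galactose arrays were apart from all controls in 12 of the 43, 5 higher and 7 lower, and in 47.8% of all genes, 31.4% higher and 16.4% lower. At an unadjusted p under 0.05, 6 of the 43 passed (14.0%), against 34.7% of all genes. The share over all genes depended on intensity, and 42 of the 43 lay at or above the median level. In a fit to the 2828 genes at or above that level, 1 of the 42 passed, against 4.24% of the 2828. The median difference there was -0.05 over the 42 and 0.09 over the 2828. The position of the 43 genes depended on scaling: with the 75th percentile of each array as scale, the median was -0.22 over the 43 and 0.04 over all genes, and with quantile normalization it was 0.01 and 0.13. Relative to all genes the 43 were lower under each of these, by -0.26 as reported, -0.27 and -0.12. Without galactose array 2 the median was 0.23 over the 43 and 0.32 over all genes, a gap of -0.09.

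The galactose arrays differed from each other more than either of the other groups did. The median SD of log2 intensity over the 43 genes was 0.11 with galacturonic acid, 0.55 with galactose and 0.34 in controls, and over all genes it was 0.17, 0.52 and 0.30. The galactose pair differed by more than 2-fold in 17 of the 43 genes (39.5%), 14 lower on array 2 and 3 higher, against 34.9% of all genes. The widest gaps were 7.17-fold for HIS3, 5.04-fold for THR1, 4.77-fold for LYS4 and 4.32-fold for LYS9, all lower on array 2, which had the higher 3′ to 5′ ratios. ARG3, LYS21 and HOM3 were higher there. The galacturonic acid pair differed by more than 2-fold in 4 of the 43 (9.30%; LEU1, LYS1, THR1 and ASN2), against 3.20% of all genes. Without galactose array 1, which leaves the poorer array alone in its group, 13 of the 43 and 41.1% of all genes passed against the control.

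Between galacturonic acid and galactose, 1 of the 43 genes passed, ILV6, against 13.1% of all genes (686, with 5.23% higher and 7.91% lower). The median log2 difference was 0.04 over the 43 and -0.24 over all genes, and with quantile normalization it was -0.02 and -0.16. The arrays of the 2 groups were apart in 25 of the 43 genes and in 63.7% of all genes. With galacturonic acid 13 of the 25 were higher and 12 lower, against 22.6% and 41.1% of all genes. At an unadjusted p under 0.05, 7 of the 43 passed (16.3%), against 36.4% of all genes. In the fit to the 2828 genes at or above the median level, 1 of 42 passed, against 5.41% of the 2828. The medians there were 0.05 and -0.15. Without galactose array 1, 16 of the 43 and 44.6% of all genes passed, in a fit with a single galactose array.

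Genes with more than one probe set showed how far the galactose values depended on the probes. HIS3 had a second probe set with 35.8 and 41.4 with galacturonic acid, 127 and 248 with galactose, and 80.8, 76.4 and 69.4 in controls. On galactose array 2 the main HIS3 probe set was 9.02-fold below the control mean while the second was 3.29-fold above it, so the 2 probe sets of this gene gave opposite directions. LEU2 had 3 probe sets. Its main one had 1147 and 317 with galactose and 1231, 1173 and 1339 in controls, whereas the other two had 10.9 and 5.7 against 282, 328 and 134, and 174 and 10.2 against 491, 587 and 229. Of those 4 galactose values 3 were below the floor, and with galacturonic acid the same probe sets gave 369.9 and 531, and 644 and 734. One probe set is listed for both LYS20 and LYS21. It had 1541 and 1476 with galacturonic acid, 1294 and 697 with galactose, and 1283, 2126 and 2658 in controls. On galactose array 2 it was below all controls, while the probe sets assigned to LYS20 alone and LYS21 alone gave 1903 and 2880 there. The remaining 41 genes had 1 single-gene probe set each.

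**Figure D5:**
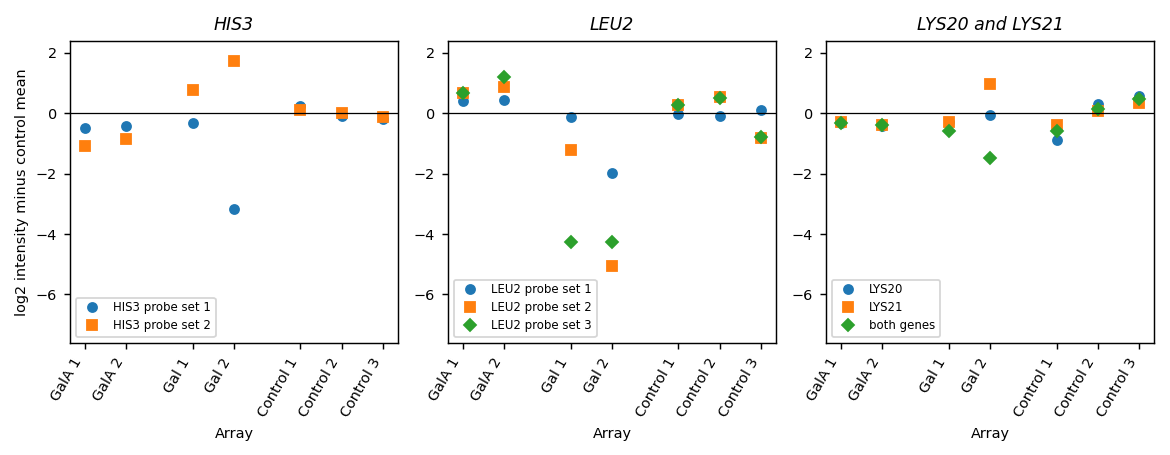
Log2 intensity minus the control mean on each array for every probe set of HIS3, of LEU2 and of LYS20 and LYS21, including the one listed for both lysine genes. On galactose array 2 the HIS3 probe sets lie 9.02-fold below and 3.29-fold above the control mean, and the LEU2 probe sets are all below it.

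Other genes around the pathway were taken from fixed lists. The 66 listed genes were other enzymes of the same pathways, enzymes of glutamate, glutamine, proline and glycine synthesis, factors that control GCN4 translation, factors of Gcn4 turnover and coactivation, pathway-specific regulators, and further Gcn4 targets. Of these, 64 had a single-gene probe set and 63 could be tested. With galacturonic acid 0 of the 63 passed by limma, against 2.32% of all genes, and 10 (15.9%) had an unadjusted p under 0.05, against 12.5% of all genes.

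PCL5, the cyclin that directs Gcn4 to degradation and is itself a Gcn4 target, had the smallest p of its list with galacturonic acid. It gave 177 and 165 with galacturonic acid, 336 and 526 with galactose, and 611, 345 and 450.0 in controls. Both galacturonic acid arrays lay below all other arrays, and the difference from the control was -1.42 ± 0.35 (limma adjusted p = 0.106). ICY2, a further Gcn4 target that RefSeq names ATG41, gave 285 and 315 with galacturonic acid, 422 and 386 with galactose, and 1258, 574 and 686 in controls. All 4 arrays with an added sugar were below the controls, and the difference with galacturonic acid was -1.40 ± 0.37 (adjusted p = 0.132). SNZ1 and SNO1, of the same list, differed by -1.04 and -1.06 (adjusted p of 0.188 and 0.223). These 3 of the 9 further targets (33.3%) had a limma unadjusted p under 0.05, against 12.5% of all genes. The same 3 differed by at least 2-fold, against 9.16% of all genes. Of the 9, 5 were below 0 and 4 above. The smallest p of the other lists belonged to SER3, described above, GLT1, glutamate synthase, at -0.44 (adjusted p = 0.57), YIH1, which restrains Gcn2 activation, at 0.86 (adjusted p = 0.685), and ARG80, a regulator of arginine-responsive genes, at 0.85 (adjusted p = 0.208). None of the genes that control GCN4 translation passed with galacturonic acid. GCN2, the sensor kinase, had 31.5 and 26.5 with galacturonic acid, 47.5 and 41.6 with galactose, and 31.9, 40.1 and 36.7 in controls, so its galacturonic acid arrays lay below all controls, by -0.32 ± 0.28.

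With galactose 4 of the 63 genes passed, 3 higher and 1 lower, and between galacturonic acid and galactose also 4, 2 higher and 2 lower. That is 6.35% of the 63, against 9.06% and 13.1% of all genes. HIS6, an isomerase of histidine synthesis, rose by 1.65 ± 0.28 with galactose (limma adjusted p = 0.0197), with 75.2 and 61.5 with galactose against 18.4, 22.2 and 24.8 in controls. GCD2, a subunit of the initiation factor eIF2B, rose by 1.33 with galactose (adjusted p = 0.046), and it was lower with galacturonic acid than with galactose, by -1.35 (adjusted p = 0.0463). BAS1, an activator of histidine and purine genes, rose by 1.33 with galactose (adjusted p = 0.0479). These were genes of low intensity, and all were measured on the galactose arrays whose RNA quality differed.

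ARG80 was below the floor on both galactose arrays, so its differences are bounds taken at the floor. It had 35.9 and 56.0 with galacturonic acid, 4.0 and 2.0 with galactose, and 27.1, 25.0 and 22.8 in controls, and was at least 2.08-fold lower with galactose than in controls (limma adjusted p = 0.0481). With galacturonic acid it was at least 3.74-fold higher than with galactose (adjusted p = 0.0127). GDH3, a glutamate dehydrogenase, was 2.34 higher on the log2 scale with galacturonic acid than with galactose (adjusted p = 0.0348), and ARO9, an aromatic aminotransferase, was lower by -1.40 (adjusted p = 0.0425).

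The next smallest p-values of each list in the galactose comparisons did not pass. With galactose against the control, GDH3 differed by -1.92, GLY1, threonine aldolase, by -3.28 (limma adjusted p = 0.0576), HIS2, histidinol phosphatase, by -0.98, YIH1 by -1.47, CDC4, the F-box protein that targets Gcn4, by 1.15, SSN8, cyclin C of the Mediator, by -0.70, ICY2 by -0.97 and MTD1, an enzyme of folate metabolism, by 0.99. GLY1 had 171 and 10.1 with galactose, against 385, 426 and 520.1 in controls, and galactose array 2 was below the floor. Between galacturonic acid and galactose, GLY1 differed by 3.42, HIS6 by -1.10, YIH1 by 2.34, PCL5 by -1.30, MED15, a Mediator subunit that Gcn4 contacts, by 1.08, ARG82, an inositol polyphosphate kinase, by -1.88, SNZ1, an enzyme of vitamin B6 synthesis, by -0.91 and ORT1, the mitochondrial ornithine carrier, by -0.66.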

How the data were processed

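The values are the authors' deposited intensity per probe set on 7 Affymetrix arrays, produced with GCOS 1.2 per the submitters' processing notes; the signal algorithm is not given in the sources used here. After trimming 2% at each end, mean intensity was 150.1 on every array, so the values were used as scaled. Probe sets were named through the platform annotation: 6504 of 9335 had 1 gene. Intensities under 12 were set to 12, log2 was taken, and genes above 12 on at least 2 arrays were kept. limma 3.58.1 in R 4.3.3 (lmFit, eBayes with intensity trend) was fitted to all 7 arrays with 1 mean per group, and p-values were adjusted by Benjamini-Hochberg over 5220 genes. The code was tested on simulated data.

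Values on every array are given for GCN4, genes past an adjusted p of 0.05, the gene of each pathway with the largest absolute difference with galacturonic acid, and isozyme pairs. Other genes with array values were chosen after their values were seen. From the other lists, genes past the threshold are named, or those with the smallest p. The differences of SNZ1, SNO1, ARG2, ARG7 and BAT2 from the control were added after their values were seen. The genes and lists were chosen with earlier results of these data known. Groups came from titles and treatment labels; array numbers follow the order of deposit and only name arrays.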

Additional observations from a re-analysis of the deposited data

How the results depend on the processing

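Each comparison was refitted with quantile and 75th percentile scaling, floors of 1 and 50, log2(value + 16), no filter, only genes at or above the median level, the mean of a gene's probe sets, no intensity trend, array weights, only the 2 groups compared, and each array left out. With galacturonic acid against control the count of passing genes among the 43 was 0 in each setting except array weights, which gave 3 (BAT1, TRP4 and ARO1) while 14.8% of all genes passed. With galactose against control the count of 1 went to 0 with no filter, array weights or only the 2 groups, to 2 with the mean of probe sets (ILV6 and LEU2), and ranged from 0 to 13 with 1 array left out; the median difference of the 43 then ranged from -0.11 to 0.23. Between galacturonic acid and galactose the count of 1 went to 0 with no filter or only the 2 groups, to 2 with the mean of probe sets, and ranged from 0 to 16 with 1 array left out. With a replicate block on array number it was 0 (ILV6 adjusted p = 0.065); the numbers follow deposit order and pair nothing by design. ILV6 kept its call in 10 of 18 settings against control (limma adjusted p of 0.00144 to 0.0821) and in 14 of 19 between the added sugars (0.00137 to 0.186). Of the 10 genes given in full, no difference that passed changed sign, but 2 of 180, 7 of 180 and 3 of 190 values that did not pass turned sign, among them BAT1 (-0.53 to 0.72) and LYS4 (-1.38 to 0.87) with galactose and HIS3 between the added sugars (-0.46 to 2.71). Where fewer arrays or groups enter, the spread has fewer degrees of freedom; otherwise the cause was not tested. With 2 or 3 arrays per group, changes of 2-fold or more could go undetected in most of these genes, and intensities near the floor have no order. THR1, for example, was 3.62-fold lower with galactose and did not pass (limma adjusted p = 0.0886).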
